A study of Mus musculus with 16 samples.

Results

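Rspo1 gain of function (GOF) was examined in the adrenal glands of female (XX) mice. The comparison takes 8 of the 16 libraries of the study: 4 labelled female Rspo1 GOF and 4 labelled female control. The libraries were taken by their labels. The other 8 libraries are male control and male Rspo1 GOF, and they share the estimate of the spread between mice. Every library is bulk RNA sequencing of adrenal tissue from another mouse. All mice were 4 weeks old and of mixed background. The promoter or allele that drives Rspo1 in GOF mice, and the cells in which it acts, are not given in the sources used here. The question was how extra R-spondin 1 changes the female gland.

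R-spondins are secreted proteins that bind LGR receptors and hold back ZNRF3 and RNF43, the membrane ubiquitin ligases that remove WNT receptors, so that a cell responds more strongly to WNT. In the adrenal gland R-spondins come mainly from the fibrous capsule, and WNT signalling is highest in the outermost cortical zone, the zona glomerulosa, which makes aldosterone. The zona fasciculata beneath it makes glucocorticoid, and the medulla in the centre makes catecholamines. Between cortex and medulla, young female mice keep a transient layer called the X-zone, which male mice lose at puberty.

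The 8 female libraries held between 32809755 and 43003968 counts, and in the check for copies the lowest chi-square per degree of freedom among 12 pairs of libraries of a group was 32.9. Markers of the adrenal cortex were abundant in all 8: Cyp11a1, which starts steroid synthesis, lay between 5689.6 and 8312 CPM (counts per 1000000 counts, after TMM scaling of the library totals). Xist, the transcript of the inactive X, lay between 348 and 1226 CPM in the female libraries. Female controls 1 and 3 also carried kidney transcripts. The summed level of 12 kidney tubule genes was 1357 CPM in control 1 and 230.3 CPM in control 3, against 0.838 and 0.909 CPM in controls 2 and 4, and between 0.298 and 0.818 CPM in GOF. Each main count below is therefore also given without controls 1 and 3 where it moved by more than 1.5 times.

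Of 18214 genes tested, 7218 (39.6%) were called, meaning an adjusted p under 0.05 by the quasi-likelihood test of edgeR. Of these 3467 (19%) rose and 3751 (20.6%) fell in female GOF. These shares are the background for every list below. Without female controls 1 and 3, 4440 of 19125 genes (23.2%) passed, 1697 (8.87%) higher and 2743 (14.3%) lower, and 4326 of the 7218 kept their call and sign. Large changes were mostly losses: 724 genes rose and 2397 fell with an absolute log2 fold change of 1 or more. The CPM of the GOF and control libraries did not overlap in 6890 genes (37.8%). The split of calls depended on the processing: higher genes were 48.0% of the calls, 36.9% with mitochondrially encoded genes removed from the totals, and 60.7% with limma on log2(FPKM + 1), which also changes the test and the genes tested. Small changes are therefore read relative to the median gene, at 0.05 on the log2 scale.

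**Figure D1:**
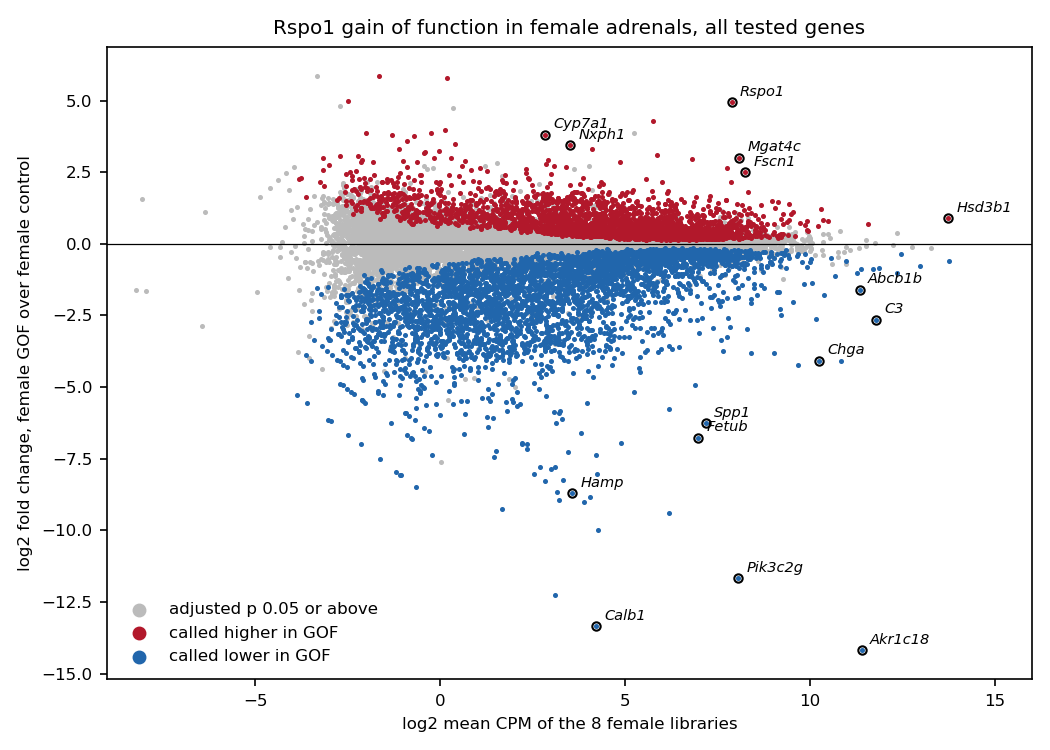
Each point is 1 tested gene: the x axis is its log2 mean CPM over the 8 female libraries and the y axis its log2 fold change, GOF over control. Red and blue points passed an adjusted p of 0.05 as higher and lower in GOF; the losses reach a log2 fold change of -14.19 at Akr1c18, and Rspo1 stands at 4.94.

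Rspo1 itself (ENSMUSG00000028871, chromosome 4, 124986430 to 125009099, GRCm38) checked the labels. It stood at 40.5, 3.19, 9.72 and 5.87 CPM in female controls 1 to 4 and at 532, 507, 438 and 353 CPM in GOF 1 to 4. Every GOF library was therefore far above every control, and the highest control was control 1, 1 of the pair with kidney transcripts. The log2 fold change was 4.94 ± 0.658 (SE), with an adjusted p of 6.11e-05. Without controls 1 and 3 it was 6.65.

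Among the other members of the R-spondin system more fell than rose. Of 8 members tested, Rspo1 itself included, 2 rose and 4 fell, against 19% and 20.6% of all genes. Rspo3, the R-spondin of the adrenal capsule, stood at 24.1, 12.9, 14.7 and 23.2 CPM in controls and at 1.66, 2.22, 1.64 and 1.83 CPM in GOF, a log2 fold change of -3.34 ± 0.213 (adjusted p 1.73e-07). All 3 LGR receptors fell. Lgr5 (chromosome 10, 115450311 to 115587780) dropped from 44.6 ± 13 CPM to 3.44 ± 1.9 CPM (SD, n = 4), and Lgr6 from 2.69 ± 0.997 to 0.425 ± 0.0615. Lgr4 (chromosome 2, 109917647 to 110014257), the most abundant of them in counts, stood at 384, 431, 378 and 337 CPM in controls and at 227, 197, 214 and 192 CPM in GOF. Its log2 fold change was -0.88 ± 0.1 (adjusted p 1.33e-05), while in males it was -0.06. That difference passed the interaction test, which asks whether the GOF effect differs between females and males (adjusted p 0.00523). Of all genes, 766 (4.21%) passed it, and 203 did without female controls 1 and 3. Interaction results of single genes and lists, here and below, use all 4 female controls. Among the ligases, Znrf3 rose from 43.9 ± 1.49 to 63.8 ± 5.27 CPM. Rnf43 had a log2 fold change of -0.53 with an adjusted p of 0.0674. Rspo2 did not pass either, and Rspo4, with at most 3 counts in any female library, was left out by the low-count filter.

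More WNT ligands fell than rose, while their summed level rose. Of 12 tested, 6 were lower (Wnt2b, Wnt6, Wnt9a, Wnt10a, Wnt11 and Wnt16) and 2 higher, against 20.6% and 19% of all genes. The median log2 fold change was -1.08. The sum of the list, most of it Wnt4, lay between 418 and 515 CPM in controls and between 537 and 887 CPM in GOF. The median was -0.65 over the 6 members with at least 10 counts in every library, and -0.56 and -0.24 over the 8 tested on log2(FPKM + 0.1) and log2(FPKM + 1). Wnt6 stood at 6.87, 4.97, 8.92 and 9.97 CPM in controls and at 1.52, 1.4, 1.55 and 1.11 CPM in GOF. Wnt16 was near the limit of detection, at 0.356 CPM in controls. Wnt4 (chromosome 4, 137277489 to 137299726), the ligand of the zona glomerulosa, was 1 of the 2 that rose. It stood at 348, 307, 386 and 354 CPM in controls and at 467, 587, 766 and 429 CPM in GOF. Groups did not overlap; the log2 fold change was 0.69 ± 0.184 (adjusted p 0.00825). In males Wnt4 fell by 0.80 on the log2 scale, and the difference between the sexes passed (interaction 1.49, adjusted p 0.00593). Wnt5a rose by 0.43, with an adjusted p of 0.0736 without controls 1 and 3.

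No WNT antagonist of the list was called higher. Of 10 tested, 7 were lower in edgeR and DESeq2 and 8 in voom, with a median of -1.44; 0 were higher in edgeR, also at an unadjusted p under 0.05, in DESeq2 or in voom. Sfrp1, which binds WNT ligands outside the cell, stood at 73.1, 48.7, 71.3 and 77.6 CPM in controls and at 10.8, 22.4, 15.2 and 17 CPM in GOF. Sostdc1 had the lowest log2 fold change, -4.41, which was -2.69 without the controls that carried kidney transcripts; it stood at 9.1 CPM in control 1. Dkk2, Dkk3, Sfrp4, Sfrp5 and Kremen1 were the others that fell. Without controls 1 and 3, Sfrp4 and Kremen1 were not called; the call was also lost without control 4 for Sfrp4, and in 9 of 28 alternatives in all for Kremen1.

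Genes known as direct responders to WNT went in both directions. Of 14 tested, 5 rose and 6 fell. Axin2, a scaffold that limits the pathway and its standard reporter, stood at 45.6, 43.6, 47.4 and 55.5 CPM in controls and at 79.7, 67.7, 80.1 and 84.4 CPM in GOF. Tcf7, a WNT-dependent transcription factor, moved from 36.6 ± 5.04 to 77.1 ± 4.08 CPM. Tnfrsf19 and Myc rose with log2 fold changes of 1.12 and 0.97, and Znrf3, counted here too, with 0.54. In each of these 5 genes every GOF library was above every control. On the falling side were Lgr5, Apcdd1 (-1.54), Notum (-1.44), Nkd1 (-1.12), Lef1 (-0.95) and Ccnd1 (-0.62). Lef1 in GOF 2, at 8.05 CPM, lay close to the lowest control, at 8.37 CPM, and its adjusted p was 0.0762 without controls 1 and 3. The increase of Tnfrsf19 was larger than in males (interaction adjusted p 0.0433). In bulk tissue, fewer cells of a type and less RNA per cell cannot be told apart, and this holds for every level below.

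**Figure D2:**
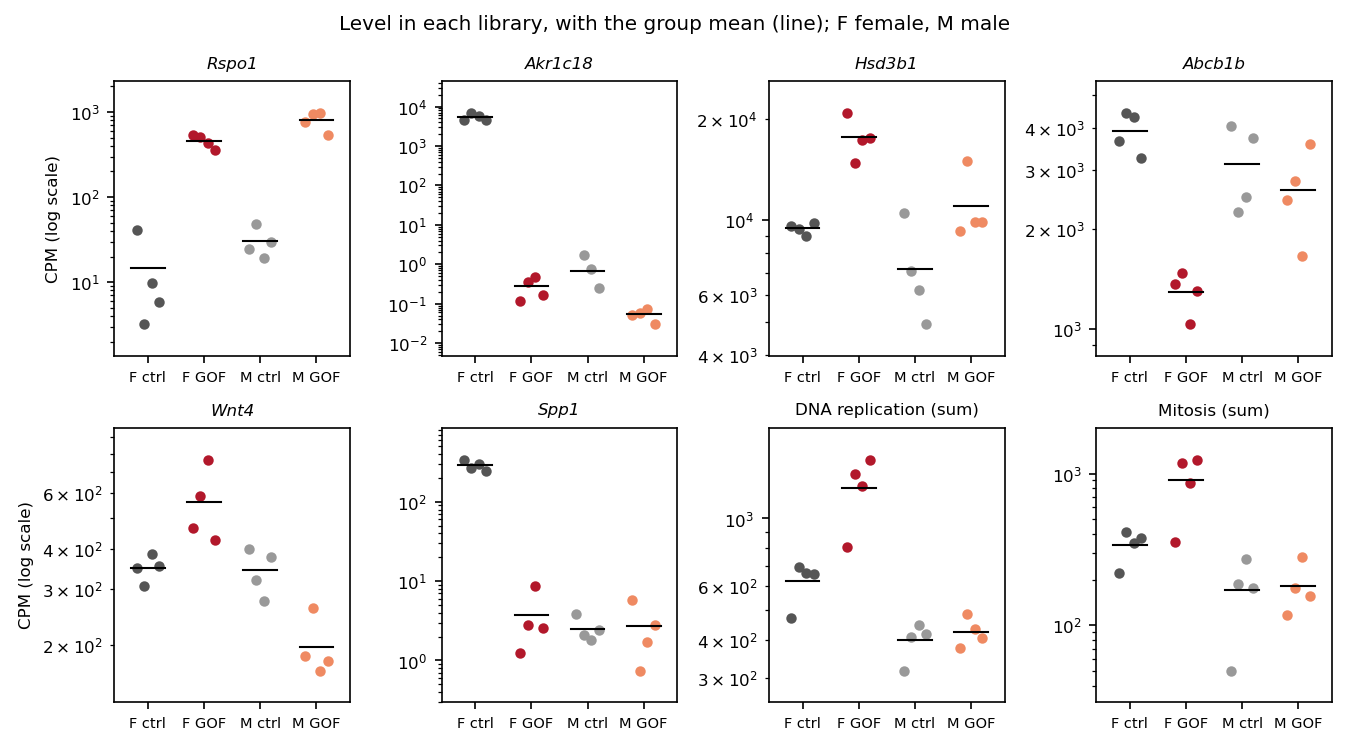
Each panel shows the CPM (log scale) of a gene, or the summed CPM of a gene list, in every library of female (F) and male (M) controls (ctrl) and GOF, with the group mean as a line. Akr1c18 falls from 4449.6 CPM or more in female controls to 0.477 CPM or less in female GOF (1 male control, at 0, has no point), and Wnt4 and the replication and mitosis sums are higher in female GOF.

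Hedgehog signalling carries messages from the outer cortex to the capsule. All 8 members tested passed, 6 lower and 2 higher, with a median of -1.21. Shh, the ligand made by outer cortical cells, stood at 33.7, 21.2, 20.2 and 26 CPM in controls and at 6.84, 9.38, 8.21 and 5.08 CPM in GOF. The responding genes in the receiving cells fell beside it: Gli1 from 6.17 ± 1.52 to 1.52 ± 0.217 CPM, and Hhip from 16.2 ± 1.08 to 4.65 ± 2.32 CPM. Ptch1 and Gli2 were lower too. Gli3, whose protein often acts as a repressor of the pathway, rose from 9.18 ± 1.24 to 16.3 ± 0.715 CPM, and Smo, the transducer, by 0.23 on the log2 scale. Smo was not called without GOF 3 or without GOF 4, with no filter on low counts or with mitochondrially encoded genes removed, which left 1 higher member.

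Zona glomerulosa markers did not rise. Of 11 tested, 5 fell and 0 rose by edgeR's quasi-likelihood test, and 0 rose at an unadjusted p under 0.05, in DESeq2 or with voom. Cyp11b2 (chromosome 15, 74851010 to 74856318), the aldosterone synthase, stood at 163, 286, 277 and 197 CPM in controls and at 40.9, 18.1, 20.6 and 26.3 CPM in GOF, a log2 fold change of -3.12 ± 0.424 (adjusted p 6.74e-05). Cyp11b2 is similar in sequence to Cyp11b1, and reads could be split between them. The calcium sensor Vsnl1 fell from 56.3 ± 3.85 to 8.78 ± 0.779 CPM, and the potassium channel gene Kcnk9 from 214 ± 28.1 to 33.8 ± 7 CPM. Agtr1b, an angiotensin receptor, and Rgs4 were the remaining calls. Several markers of the same zone were not called: the log2 fold change was 0.45 for the channel gene Kcnk3, -0.22 for Dab2, -0.12 for the main angiotensin receptor Agtr1a and -1.45 for Hsd3b6.

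In the zona fasciculata list 3 of 6 genes fell. Akr1b7, a reductase that follows adrenocorticotropic hormone (ACTH), stood at 658, 1050.4, 1084 and 570.4 CPM in controls and at 284, 408, 176 and 193 CPM in GOF. Mrap, the partner that carries the ACTH receptor to the membrane, fell from 421 ± 119 to 156 ± 23.2 CPM. The receptor gene Mc2r stood at 211 ± 20 CPM in controls and 316 ± 52 CPM in GOF; the groups did not overlap, but its adjusted p was 0.092. Cyp11b1, which makes corticosterone, had a log2 fold change of 0.37 with an adjusted p of 0.201.

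The shared steroidogenic genes changed little as a group: 2 of 9 rose and 1 fell, against 19% and 20.6% of all genes, and the median was -0.11. Hsd3b1 (chromosome 3, 98852194 to 98859794), which converts pregnenolone to progesterone, had the largest gain in CPM of any gene that met the naming rule. It stood at 9628, 9424, 9005 and 9834 CPM in controls and at 20745, 14800.2, 17315 and 17507 CPM in GOF. Each GOF library was above every control; the log2 fold change was 0.89 ± 0.208 (adjusted p 0.00349). Star, which carries cholesterol into mitochondria, went the other way, from 10116 ± 1676 to 5898 ± 1508 CPM. Nr5a1, the master regulator of steroidogenic cells, rose by 0.82 on the log2 scale, but control 4, at 1571 CPM, was above GOF 4, at 1325 CPM. Without controls 1 and 3 the adjusted p was 0.0645 for Star and 0.134 for Nr5a1. Cyp11a1 (-0.11) and Cyp21a1 (-0.16) were not called.

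Transcripts of the X-zone were nearly gone. Akr1c18 (chromosome 13, 4132615 to 4150654), the progesterone-inactivating enzyme that marks this zone, stood at 4548, 6807, 5824 and 4449.6 CPM in controls and at 0.117, 0.366, 0.477 and 0.171 CPM in GOF. These GOF levels rest on 4, 16, 16 and 6 counts. The fitted ratio of control to GOF was 18695, the log2 fold change -14.19 ± 0.73 and the adjusted p 7.68e-08. Reads of Akr1c18 could be split by the counting, since related aldo-keto reductase genes resemble it. Male control libraries, at 0 to 1.75 CPM, also held almost none, and the larger female loss passed the interaction test (adjusted p 0.0292).

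Pik3c2g (chromosome 6, 139587221 to 139969284), a lipid kinase gene of the X-zone, stood at 549.8, 544, 568 and 456 CPM in controls. In GOF it had 0, 2, 19 and 2 counts, and GOF 3 held most of what remained. The third marker fell in part: Thrb, a thyroid hormone receptor, stood at 161, 187, 217 and 212 CPM in controls and at 50.7, 73.2, 81.1 and 109 CPM in GOF (log2 fold change -1.31 ± 0.178, interaction adjusted p 0.0263).

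**Figure D3:**
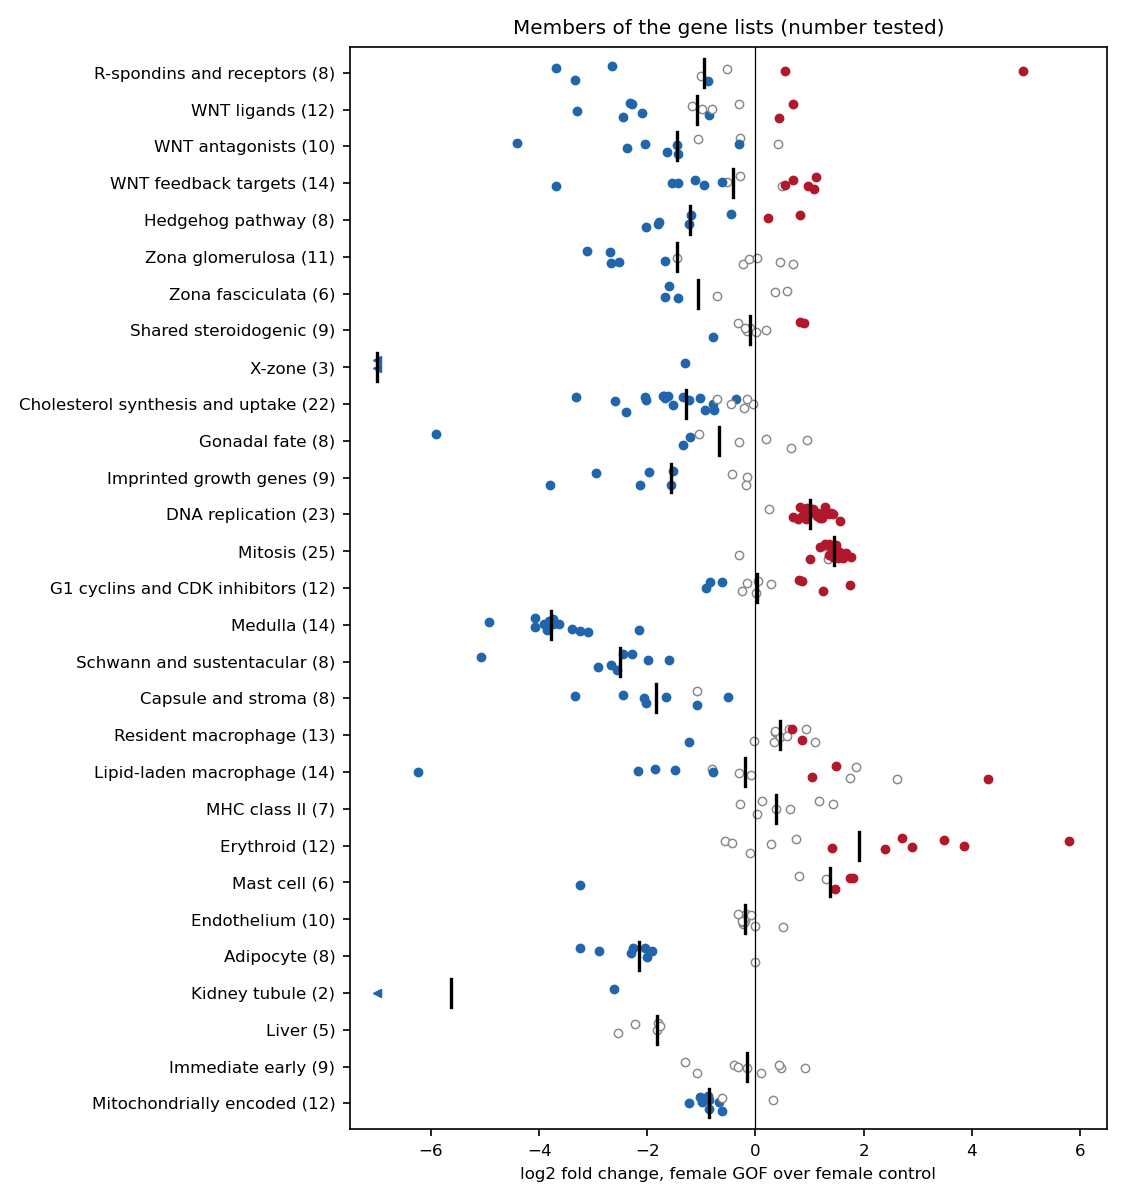
Each point is 1 gene of the list named on the left (number tested in parentheses) and the x axis is its log2 fold change, female GOF over female control; filled points passed an adjusted p of 0.05 and the black bar is the list's median. Values under -7 are drawn as triangles at the left edge, and so is the X-zone median of -11.68; medulla, Schwann and adipocyte genes lie left of 0, replication genes right of it, and so do the mitosis genes except Ttk (-0.30, not called).

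Cholesterol is the raw material of every adrenal steroid, and the gland can make it or take it up. Of 22 genes of cholesterol synthesis and uptake, 17 fell and 0 rose by edgeR's quasi-likelihood test (0 at an unadjusted p under 0.05, in DESeq2 or with voom), with a median of -1.28; all 22 log2 fold changes were below 0. Without controls 1 and 3, 16 fell. The decrease was not even along the pathway. Hmgcs1, near its start, stood at 343, 405, 421 and 448 CPM in controls and at 355, 307, 417 and 484 CPM in GOF, and the groups overlapped (log2 fold change -0.05).

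Fdps, Idi1 and Tm7sf2 fell the most of the 22. Fdps (chromosome 3, 89093588 to 89101959), which makes farnesyl diphosphate, stood at 16.8, 24.9, 28.8 and 30.6 CPM in controls and at 3.04, 1.62, 2.33 and 3.14 CPM in GOF, a log2 fold change of -3.32 ± 0.505 (adjusted p 0.000152). Idi1, 1 step earlier, stood at 175, 389, 509 and 447 CPM in controls and at 61.5, 52.2, 57.9 and 80.3 CPM in GOF. Tm7sf2, a sterol reductase, went from 71.1 ± 16.8 to 13.6 ± 0.784 CPM, and Sqle, which commits squalene to sterols, from 107 ± 29.2 to 26.4 ± 4.96 CPM. In all 4 genes the highest GOF library was below the lowest control. Insig1 (-0.22) and the master regulator Srebf2 (-0.16) were among the members not called. Fdps, Tm7sf2 and Ebp fell more than in males (interaction adjusted p 0.0434 for Fdps and 0.00608 for Tm7sf2). The list's male median was -0.80, with 14 lower calls.

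**Figure D4:**
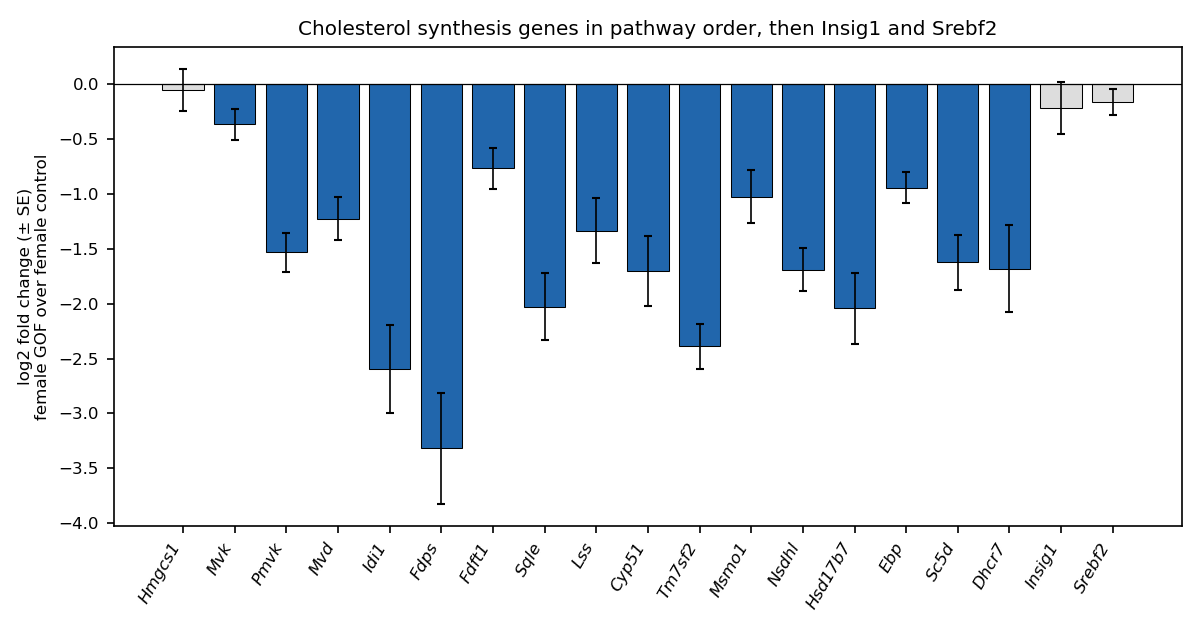
Bars give the log2 fold change (± SE, 4 female GOF against 4 female control libraries) of cholesterol synthesis genes in pathway order, then Insig1 and Srebf2; not every member of the list is drawn. Blue bars passed an adjusted p of 0.05 and grey bars did not; the decrease is largest at Fdps (-3.32) and Idi1 (-2.59), and Hmgcs1 is at -0.05.

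Genes of DNA replication rose. Of 23 tested, 22 were higher and 0 lower, against 19% of all genes called higher, with a median log2 fold change of 1.0. Pola1, a subunit of the polymerase that starts new strands, stood at 15.2, 17.8, 15.5 and 18.4 CPM in controls and at 27.4, 39.6, 38.3 and 44.2 CPM in GOF (log2 fold change 1.16 ± 0.157, adjusted p 5.67e-05). Mcm5, part of the replicative helicase, stood at 18.4, 35.1, 32 and 31 CPM in controls and at 43.8, 82.7, 73.2 and 83 CPM in GOF. Pcna, the sliding clamp, moved from 95.2 ± 19.4 to 185 ± 57.6 CPM. Rrm2 had the highest log2 fold change of the list, 1.56, though GOF 1, at 26.4 CPM, lay within the control range. Cdc45 (0.25) was the member not called. Without controls 1 and 3, 14 members stayed higher. In males 0 were higher in edgeR, also at an unadjusted p under 0.05 and in DESeq2 and voom, and the female increase was larger in 7 members by the interaction test, Mcm2, Mcm4, Rrm1, Cdt1, Pola1, Ccne1 and Lig1, against 4.21% of all genes in either direction. The interaction count was 13 in DESeq2, 14 in voom and 21 at an unadjusted p under 0.05 in edgeR. These counts use all 4 female controls. Over all genes, interaction calls in edgeR went from 766 to 203 without controls 1 and 3.

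Genes of mitosis were higher as well, with more spread between mice. Of 25 tested, 22 rose and 0 fell, with a median of 1.46. Mki67 (chromosome 7, 135689784 to 135716361), the standard mark of cycling cells, stood at 26.6, 33.7, 30.8 and 36.4 CPM in controls and at 51.5, 166, 85.4 and 131 CPM in GOF (log2 fold change 1.77 ± 0.544, adjusted p 0.019). Only 3 of the 25 members had groups that did not overlap, against 37.8% of all genes. The sum of the list was 220.1, 414, 348 and 374 CPM in controls and 355, 1176, 866 and 1234 CPM in GOF, so that GOF 1 lay within the control range. These calls rested on few libraries: 1 member stayed higher without controls 1 and 3, 4 without control 1, 13 without control 3, 5 without GOF 2, 12 without GOF 3 and 3 without GOF 4. Control 1 and GOF 1 had the lowest sums of their groups and also share a range of numbers in the sample titles that no other female library has. With that range as a covariate 11 members were called higher. None of the 25 passed the interaction test with sex in edgeR (lowest adjusted p 0.149; 11 at an unadjusted p under 0.05), and 0 did in DESeq2 or voom. The male median was 0.04.

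The promoters of these genes are shown because the members of each list moved together. For 12685 tested genes RefSeq (GRCm38.p6) gave a promoter, and the 250 bases before the start site were searched on both strands for 5 motifs: TTTGAA, the letters of the cell cycle homology region (CHR) bound by the complexes that control mitotic genes; TTCCCGC, a form of the E2F site of replication genes; CTTTGA for TCF/LEF, the WNT transcription factors, which overlaps TTTGAA in CTTTGAA; TCACNCCAC for the sterol response element; and CAAGGTCA for NR5A1. The CHR letters were in 7 of 20 mitosis promoters (35%), in 11.0% of all and in 12.3% of those of genes called higher. They were also in 3 of 19 replication promoters and in 2 of 5 of the shared steroidogenic genes. Capitals mark the match in the 80 bases before each start site, read 5′ to 3′ on the gene's strand.
Cdc20 (chr4:118437344-118437423, minus strand): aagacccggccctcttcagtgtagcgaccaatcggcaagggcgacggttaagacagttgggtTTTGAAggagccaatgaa
Cdk1 (chr10:69352913-69352992, minus strand): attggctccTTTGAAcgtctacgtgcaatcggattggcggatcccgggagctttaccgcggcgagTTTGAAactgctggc
Kif11 (chr19:37376302-37376381, plus strand): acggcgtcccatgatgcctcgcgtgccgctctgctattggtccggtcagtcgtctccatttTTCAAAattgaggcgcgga
Top2a (chr11:99024190-99024269, minus strand): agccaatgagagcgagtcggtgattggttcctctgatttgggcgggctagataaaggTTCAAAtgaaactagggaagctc
Ube2c (chr2:164769849-164769928, plus strand): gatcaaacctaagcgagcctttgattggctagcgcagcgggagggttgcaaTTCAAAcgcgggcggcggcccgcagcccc
Within the 80 bases shown, the first match of these 5 begins between 71 and 18 bases before the start site, and Cdk1 holds 2. Kif11, Top2a and Ube2c carry the match shown on the opposite strand, as TTCAAA. Top2a has 2 matches in the 250 bases searched, of which 1 is shown. Their log2 fold changes were 1.50 for Cdc20, 1.31 for Cdk1, 1.42 for Kif11, 1.55 for Top2a and 1.51 for Ube2c.

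The E2F letters were in 6 of 19 replication promoters (31.6%), in 6.66% of all and in 9.26% of those of genes called higher. They were in 0 of the 20 mitosis promoters. A match describes the letters and is no evidence of binding.
Prim1 (chr10:128015135-128015214, plus strand): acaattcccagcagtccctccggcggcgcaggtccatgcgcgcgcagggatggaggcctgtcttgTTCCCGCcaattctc
Rrm1 (chr7:102441615-102441694, plus strand): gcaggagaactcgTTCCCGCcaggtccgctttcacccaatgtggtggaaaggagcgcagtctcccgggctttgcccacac
Uhrf1 (chr17:56303257-56303336, plus strand): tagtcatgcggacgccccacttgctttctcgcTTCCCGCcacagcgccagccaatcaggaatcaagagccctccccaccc
Prim1, the primase, rose by 1.23 on the log2 scale, Rrm1, which supplies deoxynucleotides, by 0.79, and Uhrf1, which keeps DNA methylation through replication, by 1.43. The sterol response letters were in 1 of 16 cholesterol promoters (1.02% of all), and the TCF/LEF letters in 1 of 7 promoters of the WNT feedback genes (11.1% of all). The NR5A1 letters were in 0 of 5 shared steroidogenic, 0 of 2 zona fasciculata and 1 of 16 cholesterol promoters, in 1.02% of all and in 1.55% of those of genes called lower.

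Regulators of the step from G1 into S phase split. Ccnd3 (chromosome 17, 47505051 to 47599691), a D-type cyclin, stood at 289.6, 290.3, 356 and 318 CPM in controls and at 714, 709.6, 699.6 and 861 CPM in GOF, a log2 fold change of 1.25 ± 0.13 (adjusted p 6.83e-06). The increase was larger than the male one of 0.12 (interaction adjusted p 0.00387). Its partner kinase gene Cdk4 rose from 126 ± 4.02 to 219 ± 30.9 CPM. The other D-type cyclins fell: Ccnd2 from 289 ± 25.6 to 154 ± 18.8 CPM, and Ccnd1 by 0.62 on the log2 scale. Among the inhibitors, Cdkn1b fell by 0.83, while Cdkn2c rose by 0.87. Cdkn2a, a tumour suppressor, stood at 3.15, 2.58, 2.46 and 3.11 CPM in controls and at 2.86, 12.2, 13.1 and 10 CPM in GOF. Its log2 fold change of 1.76 (adjusted p 0.00347) came from GOF 2 to 4, since GOF 1 lay among the controls.

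Transcripts of the medulla were lower in all 4 GOF libraries than in any control. All 14 members tested were lower, against 20.6% of all genes, with a median of -3.77. Chga (chromosome 12, 102554969 to 102565028), a protein of the catecholamine granules, stood at 1842, 3449, 1785 and 2049.9 CPM in controls and at 119.9, 223, 63.8 and 135 CPM in GOF. Th, the first enzyme of catecholamine synthesis, stood at 249, 583.5, 335 and 318 CPM in controls and at 15, 57.6, 11.5 and 26.4 CPM in GOF. Pnmt, which turns noradrenaline into adrenaline, fell from 228 ± 130 to 7.42 ± 5.19 CPM. The transcription factors of the lineage, among them Phox2a, Hand2 and Gata3, fell, these 3 by 3.63 to 3.92 on the log2 scale. The smallest fall was that of Slc18a2, the vesicular transporter, at -2.16 ± 0.492. None of the 14 passed the interaction test in edgeR (lowest adjusted p 0.325; 0 at an unadjusted p under 0.05), DESeq2 or voom, and the male median was -3.98.

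Schwann and sustentacular markers, the glia of the medulla and its nerves, fell too, 8 of 8, with a median of -2.50. Sox10, the transcription factor of the glial lineage, stood at 3.8, 3.74, 2.37 and 3.46 CPM in controls and at 0.584, 0.984, 0.328 and 0.514 CPM in GOF (log2 fold change -2.45 ± 0.392, adjusted p 0.000215). Erbb3, a neuregulin receptor gene, stood at 21.2, 10.4, 8.64 and 8.68 CPM in controls and at 2.75, 2.43, 4.03 and 3.23 CPM in GOF. In both genes every GOF library was below every control. Without control 1, 7 of the 8 were called.

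The capsule and stroma list fell in 7 of 8 members, with a median of -1.84. Lum, a collagen-binding proteoglycan, stood at 44.4, 49.7, 50 and 57 CPM in controls and at 4.18, 14.1, 10.1 and 8.37 CPM in GOF. Dcn and Pdgfra fell by 2.06 and 1.66 on the log2 scale; Col1a1, at -1.08, was not called. Adipocyte genes fell in 7 of 8 members, with a median of -2.16. Cfd, secreted by fat cells, stood at 957, 978, 999.7 and 948 CPM in controls and at 185, 377, 159.5 and 81.3 CPM in GOF, while Plin1, which coats lipid droplets and is also made by steroid-producing cells, had a log2 fold change of -0.01. The brown fat gene Ucp1 fell by 3.24 on the log2 scale, a call lost in 11 of 27 alternatives. The endothelial list stayed near its control level: 0 of 10 genes passed in either direction in edgeR, with 1 at an unadjusted p under 0.05, 0 in DESeq2 and 1 higher and 1 lower with voom. The log2 fold changes lay between -0.32 and 0.51. The part that a change in tissue makeup or in dissection has in these values was not tested.

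**Figure D5:**
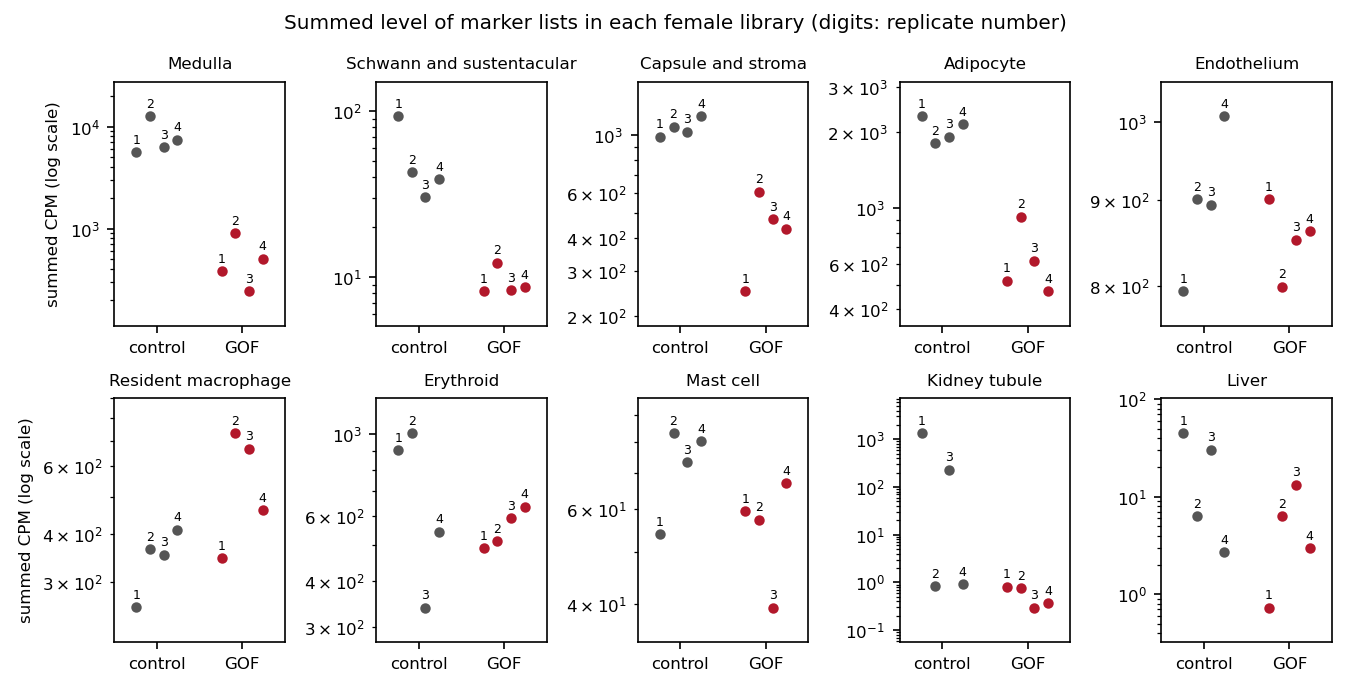
Points are the summed CPM (log scale) of each marker list in the 4 female control and 4 female GOF libraries, with the replicate number beside each point. Medulla, Schwann, capsule and adipocyte sums are lower in all 4 GOF libraries, endothelial sums overlap, and the kidney tubule sum is high in controls 1 and 3 alone.

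Imprinted genes that promote or restrain fetal growth fell in 6 of 9 members, with a median of -1.56 and no log2 fold change above 0. Dlk1, expressed in the adrenal capsule and medulla, stood at 504, 901, 549.5 and 567 CPM in controls and at 35, 80.4, 23.6 and 42.5 CPM in GOF, a log2 fold change of -3.79 ± 0.339. Meg3, its maternally expressed neighbour, fell from 295 ± 82 to 38.1 ± 18.7 CPM. Igf2, Peg3, Mest and Plagl1 fell by 1.53 to 2.14 on the log2 scale, and H19 (-0.44), Cdkn1c (-0.16) and Grb10 (-0.18) were not called.

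Of 8 genes of gonadal identity, 3 fell in edgeR and DESeq2 and 2 in voom. None of the 8 was called higher by these tools (0 in each), 1 was higher at an unadjusted p under 0.05 in edgeR, and 1 was called higher without control 3. Foxl2, the ovarian transcription factor, stood at 2.18, 0.419, 0.953 and 0.557 CPM in controls and at 0, 0, 0.0298 and 0.0286 CPM in GOF. Inhba fell by 1.21 on the log2 scale. Sox9 fell by 1.33, a call lost in 14 of 25 alternatives, among them those without controls 1 and 3 and with voom.

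Of 13 resident macrophage genes 2 rose and 1 fell, with a median of 0.45, shares that are below those of all genes (19% higher and 20.6% lower). Aif1 stood at 2.91, 3.55, 3.17 and 4.4 CPM in controls and at 4.82, 5.63, 6.68 and 5.28 CPM in GOF; Adgre1, the F4/80 antigen gene, rose by 0.86. Without controls 1 and 3 neither was called higher. The count of higher members also depended on single libraries: it was 0 without GOF 3, 1 without GOF 4 or control 1, 2 or 3, 4 without control 4 and 6 without male GOF 1. The scavenger receptor gene Cd163 fell from 4.57 ± 0.955 to 1.94 ± 0.5 CPM.

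Of 14 genes of lipid-laden macrophages 3 rose and 5 fell, against 19% and 20.6% of all genes, so the higher share was near that of all genes. Lipa, the lysosomal lipase, stood at 402, 362, 404 and 439.8 CPM in controls and at 733, 685, 1097 and 803 CPM in GOF. Gpnmb, a marker of lipid-filled phagocytes, varied most between mice, at 3.02, 5.32, 2.61 and 9.85 CPM in controls and at 10.6, 125, 211 and 62.4 CPM in GOF; its adjusted p was 0.0131, and 0.139 without controls 1 and 3. Lipa alone stayed higher without controls 1 and 3. Cd36, a fatty acid carrier, fell from 308 ± 30.2 to 68.3 ± 19 CPM.

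Spp1 (chromosome 5, 104435118 to 104441050), which encodes osteopontin and sits in the same list, fell far more than the others. It stood at 339.8, 264, 297 and 248 CPM in female controls and at 1.26, 2.77, 8.59 and 2.57 CPM in female GOF. The log2 fold change was -6.25 ± 0.61 (adjusted p 5.23e-06). Male libraries of either genotype held 0.742 to 5.72 CPM, the range in which the female GOF libraries also lay except GOF 3. The interaction was -6.37 (adjusted p 0.000808). MHC class II genes gave 0 calls of 7 in either direction in edgeR, DESeq2 and voom, with 0 at an unadjusted p under 0.05, and 2 higher without controls 1 and 3.

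Genes of the red cell lineage divided by member. Of 12 erythroid genes 7 rose and 0 fell. Gata1, the lineage regulator, stood at 0.0808, 0.161, 0.0615 and 0.117 CPM in controls and at 2.16, 1.44, 1.01 and 1.66 CPM in GOF. Hemgn stood at 0 to 0.117 CPM in controls and at 5.49, 1.94, 0.239 and 1.37 CPM in GOF. Globin genes and Alas2 were not called; Hba-a1 stood at 283 ± 156 CPM in controls and 192 ± 32.2 CPM in GOF. Without GOF 1, the library with the most Hemgn and Slc4a1, 4 of the 12 were called higher.

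Of 6 mast cell genes tested, 3 rose and 1 fell. Kit, the stem cell factor receptor, stood at 11.4, 9.22, 10.1 and 11.8 CPM in controls and at 33.4, 28.4, 31.1 and 49.8 CPM in GOF. Tpsb2 and Mcpt4, mast cell proteases, were above every control in GOF 1 and 2 but not in GOF 3; the call was lost in 12 of 27 alternatives for Tpsb2 and in 25 of 27 for Mcpt4, and 1 member, Kit, stayed higher without controls 1 and 3. The count was also 1 when GOF 1, 2 or 4 or control 1, 3 or 4 was left out. Hdc, which makes histamine, fell: it stood at 37.7, 65, 59.5 and 63.6 CPM in controls and at 3.53, 7.02, 5.7 and 7.45 CPM in GOF, a log2 fold change of -3.25 ± 0.321 (adjusted p 4.8e-06). The change of Hdc was below the male one of 0.45 (interaction adjusted p 0.000476). In Tpsb2, Mcpt4, Cma1 and Cpa3 it was above the male one by 3.42 to 5.30 (interaction adjusted p 0.0041 to 0.0191); all 4 fell in males, by 2.62 to 3.75 on the log2 scale.

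Mitochondrially encoded transcripts fell in 10 of 12 genes, with a median of -0.87. The gene mt-Cytb, a subunit of complex III, stood at 7600.2, 6664, 6169.9 and 7499.98 CPM in controls and at 4054, 3923, 2443 and 3483 CPM in GOF. The same group holds mt-Co1, the gene with the largest loss in CPM, from 16590.2 ± 2132 to 10871 ± 2188 CPM. The share of counts from this group was 3.55% to 4.47% in controls and 1.75% to 2.93% in GOF. Mt-Co2 and mt-Atp6 were not called.

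Outside the lists, the largest increases named by the rule were in Cyp7a1, Nxph1, Gpr37, Col4a6, Mgat4c, Sema5b, Dio3os, Vstm2a, Crybb1, Trank1, Nkain2 and Fscn1, with log2 fold changes from 3.82 down to 2.51. Cyp7a1 (chromosome 4, 6265612 to 6275633), the rate-limiting enzyme of bile acid synthesis, stood at 1.75, 1.23, 0.431 and 0.381 CPM in controls and at 11.7, 1.99, 13.5 and 26.5 CPM in GOF. Col4a6, a basement membrane collagen, stood at 10.8, 8.45, 11.9 and 17.6 CPM in controls and at 98.4, 95.5, 128 and 99.6 CPM in GOF. Sema5b, an axon guidance protein, stood at 44.7, 12.6, 24.7 and 19.5 CPM in controls and at 231, 159.9, 153 and 248 CPM in GOF. Cyp7a1 in GOF 2 thus lay just above control 1, whereas Col4a6 and Sema5b were well separated.

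Gpr37, a receptor best known from glia, moved from 3.15 ± 0.944 to 31.2 ± 7.39 CPM, and Fscn1, which bundles actin, from 90.7 ± 19.8 to 516 ± 113 CPM. Nxph1, a neurexin ligand, moved from 1.91 ± 0.53 to 20.9 ± 7.23 CPM. Dio3os is the antisense RNA of Dio3, the enzyme that inactivates thyroid hormone; strand use in the counting is not given in the sources used here. Dio3 itself, chosen after its values were seen, stood at 2.02, 1.19, 1.41 and 1.32 CPM in controls and at 8.24, 3.48, 6.12 and 8.88 CPM in GOF.

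By gain of CPM the rule named Hsd3b1, Mgarp, Fosl2, Klhdc8a, Aebp1, Mbnl1, Tbx3 and Xist. Mgarp, a mitochondrial protein abundant in steroidogenic tissue, moved from 767 ± 140 to 1762 ± 238 CPM. Tbx3, a T-box repressor, stood at 322, 249, 300.2 and 329.8 CPM in controls and at 933, 730.5, 796 and 845 CPM in GOF (log2 fold change 1.46 ± 0.137). Fosl2, an AP-1 factor, and Mbnl1, a splicing regulator, rose by 0.84 and 0.80. Aebp1, a matrix-associated protein, rose by 1.10, against 0.02 in males (interaction adjusted p 0.0166). Xist stood at 611, 349.8, 348 and 585 CPM in controls and at 1021, 1226, 692 and 945 CPM in GOF, a log2 fold change of 1.04 ± 0.22 (adjusted p 0.00193).

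The largest decreases named by the rule, besides the X-zone pair, were in Calb1, Kl, Hamp, Slc22a8, Kng1, Zfp750, Bhmt, Fxyd2, Fetub and Kng2. Calb1, Kl, Slc22a8 and Fxyd2 are also kidney tubule genes and followed the kidney transcripts: Calb1 stood at 126, 0.419, 21.1 and 0.528 CPM in controls. It had 0 counts in all 4 GOF libraries and was at least 446-fold lower there, or at least 5.71-fold without controls 1 and 3, computed against 3 counts per library. Kng2 was also highest in control 1, at 44.7 CPM. Fetub, a secreted protease inhibitor, stood at 201, 307, 213 and 272 CPM in controls and at 2.45, 1.62, 2.8 and 2.31 CPM in GOF, a log2 fold change of -6.76 ± 0.9 (adjusted p 6.09e-05).

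Kng1, a kininogen, stood at 9.02, 15, 12.3 and 15 CPM in controls and had 0, 5, 2 and 1 counts in GOF. Hamp, the iron hormone hepcidin, stood at 9.53, 23.7, 41.2 and 20.4 CPM in controls and had 0, 6, 1 and 1 counts in GOF. Fetub, Kng1 and Hamp are best known from liver; the summed level of 6 liver genes was 45.1, 6.32, 30.3 and 2.7 CPM in controls and 0.73, 6.31, 13.3 and 2.97 CPM in GOF, and the groups overlapped. The part of liver RNA in the values of Fetub, Kng1 and Hamp was not tested.

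By loss of CPM the rule named mt-Co1, Akr1c18, C3, mt-Cytb, Chgb, Abcb1b, mt-Nd1 and Chga. Complement C3 stood at 1642, 7704, 9517 and 5296 CPM in controls and at 374, 1524, 1505 and 455 CPM in GOF, where the highest GOF library lay just below control 1. Abcb1b, a drug and steroid efflux pump, stood at 3642, 4423, 4320.4 and 3244 CPM in controls and at 1364, 1472, 1036 and 1300.5 CPM in GOF. Its log2 fold change of -1.60 ± 0.232 (adjusted p 9.85e-05) was larger than the male one of -0.26 (interaction adjusted p 0.0314).

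Mgat4c (chromosome 10, 101681487 to 102391469), a glycosyltransferase gene, had the lowest interaction p-value between the sexes among the genes named by the rule for size. It stood at 26.4, 99.3, 73.3 and 40.6 CPM in female controls and at 273, 694, 612 and 356 CPM in female GOF. There the log2 fold change was 3.02 ± 0.424 (adjusted p 8.81e-05). In males it stood at 14.8 to 20.1 CPM in controls and 0.826 to 2.41 CPM in GOF, a log2 fold change of -3.41. The groups did not overlap in either sex, and the interaction was 6.43 (adjusted p 0.00019). Of the 7218 genes called in females, 557 also passed the interaction test.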

How the data were processed

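Per the labels' protocols, RNeasy mini columns gave total RNA, which entered NEBNext Ultra libraries where its integrity number was 7.0 or more, and sequencing was Illumina, paired-end, 150 bp. The submitters' processing notes name TopHat2 2.0.12, Bowtie2 2.2.3, HTSeq 0.6.1 and DESeq 1.18.0, with no roles. Genome build, annotation and strand setting are not given in the sources used here. The deposited counts are whole, unscaled read numbers for 54838 Ensembl genes. The deposited FPKM values are scaled by the authors to gene length and library total, and were used in alternatives only. Symbols and coordinates come from GENCODE M21 (GRCm38), which held 54809 of the gene identifiers; the length implied by counts and FPKM equalled its mean transcript length within 1% in 96.9% of 18718 genes.

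Groups come from the labels and replicate numbers follow accession order. Each library is another mouse. The comparison and the gene lists were chosen with earlier results of these data known. Counts were tested in edgeR 4.0.16 (R 4.3.3) with the robust quasi-likelihood test, TMM factors, filterByExpr and 1 mean for each of 4 groups over all 16 libraries, which kept 18214 of 34196 genes with a count. Adjustment was by Benjamini-Hochberg over these genes, with a threshold of 0.05, and standard errors were derived from fold change and F. CPM are per 1000000 counts after TMM scaling, and 29 lists are described by counts and medians. Folds against a group with 3 counts or fewer in every library were computed against 3 counts, which covers counting error only.

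The naming rule took genes past the threshold with and without female controls 1 and 3, with no overlap between groups, at least 5 CPM in the higher group and a symbol that is no clone name. From these 3019 genes, with Rspo1 set apart and reported first, it named the 12 highest and 12 lowest log2 fold changes, the 8 largest gains and losses of CPM, and the 6 smallest interaction p-values among them. List members were named by their extremes and as needed to describe the list. Some members of the lists, and some genes the rule would name, are not reported by name here.

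Alternatives were DESeq2 1.42.0, limma 3.58.1 on log2(FPKM + 1) and log2(FPKM + 0.1) with a mean FPKM of at least 0.5, and voom with sample quality weights. Further ones were other scaling factors and filters, the female libraries alone, mitochondrially encoded genes removed, and the range of numbers in the titles added as a covariate. The rest were leave-one-out over the 16 libraries, female controls 1 and 3 left out together, and an absolute log2 fold change of at least 1. Scripts were tested on simulated data. Python 3.11.15, pandas 2.3.3 and matplotlib 3.10.9 made the tables and plots.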

Additional observations from a re-analysis of the deposited data

Results flagged for a closer look

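Single libraries stood far from the other 3 of their group in 17 of 144 groups examined. The cutoff used is passed by about 1 of 20 groups of normally spread values. CPM need not be spread that way, some flagged groups lay near the limit of detection, and the kidney genes moved together. The count is therefore not set against that rate. Several of these values were of kidney tubule genes. In female control 1 the summed kidney tubule level was 1357 CPM (next 230.3), Calb1 126 CPM (next 21.1), Fxyd2 196 CPM (next 33.2), Kl 116 CPM (next 16.6) and Slc22a8 61.3 CPM (next 9.13). Kng2 was also highest in control 1, at 44.7 CPM (next 22.3), and that library had the lowest summed DNA replication level, 474 CPM (next 659). Chga was highest in control 2, at 3449 CPM (next 2049.9). Among female controls Crybb1 reached 4.16 CPM (next 2.50) and Nkain2 2.32 CPM (next 1.20).

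Among female GOF libraries, GOF 3 held the highest Col4a6 (128 CPM, next 99.6), Pik3c2g (0.567 CPM, next 0.0571) and Zfp750 (0.119 CPM, the others at 0). GOF 2 held the most counts, 43003968 (next 34620649), the highest Fxyd2 (1.01 CPM, next 0.314), the lowest Fosl2 (1565 CPM, next 1704) and the highest Schwann and sustentacular sum (12.3 CPM, next 8.74). The part of depth in these was not tested.

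The effect of GOF differed between females and males, by the interaction test in edgeR over all genes, in 7 of 40 genes examined. These 40 were Rspo1 and the genes named for the size of their female change. Over all genes 766 of 18214 (4.21%) passed this test, and 203 did without female controls 1 and 3. The female change is part of the interaction, so genes chosen by it pass more often, and the count cannot be set against that share. The female log2 fold change was above the male one by 6.43 in Mgat4c (adjusted p 0.00019), 2.14 in Gpr37 (0.0315), 1.62 in Fscn1 (0.0302), 1.61 in Sema5b (0.0445) and 1.08 in Aebp1 (0.0166). It was below the male one in Akr1c18 (-10.63, 0.0292) and Abcb1b (-1.33, 0.0314). Male controls held almost no Akr1c18, so a loss of the female size could not appear in males.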

How the results depend on the processing

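No paired analysis was possible because the replicate numbers only follow accession order and the labels tie no mice together as pairs. The range of numbers in the sample titles does group mice, and with it as a covariate 6281 genes were called. The 7218 calls became 4440 without female controls 1 and 3 and 3121 with an absolute log2 fold change of at least 1; leaving out 1 library gave 5709 to 7466. Higher calls went from 3467 to 1697 and 724 in the same settings and ranged from 2192 (without female GOF 4) to 3539 over libraries left out, and lower calls from 3751 to 2397 with the size threshold, with 3350 to 4102 over libraries left out. The 766 interaction calls became 1432 with DESeq2, 1519 with voom, 408 with no filter and 440 with the range of title numbers as a covariate. They were 203 without female controls 1 and 3 and 381 with the size threshold. Over libraries left out they ranged from 377 (without female control 3) to 953 (without male GOF 2). The cause of these shifts was not tested. Of 242 called named genes, 239 kept their sign in up to 28 alternatives and 174 their call in all. The other 3 changed sign without female controls 1 and 3. All 242 were chosen as called in the main fit, and those named for size also as called without these controls. Their steadiness is therefore partly set by the choice. Of all 7218 called genes, 4326 kept call and sign without these controls. Requiring at least 10 counts in every library tested fewer genes, and lower calls went from 6 to 3 in WNT ligands, 8 to 4 in Schwann and 3 to 1 in X-zone and gonadal genes, and higher erythroid calls from 7 to 1; erythroid calls were 3 and lower gonadal calls 1 with either FPKM fit and erythroid calls 4 with the female libraries alone. Across alternatives, 747 list medians stayed within the spread between libraries and 62 did not; with at least 10 counts in every library the erythroid median went from 1.91 to -0.16 and the mast cell one from 1.39 to -0.81, and without female controls 1 and 3 the liver median from -1.82 to 1.21 and the G1 one from 0.03 to -0.12. Mitosis had 8 higher calls with no filter. Lipid-laden macrophage genes had 5 higher calls with DESeq2, with the female libraries alone and without male GOF 1. Values of genes with 0 to 3 counts in a library are limited by depth. FPKM with a pseudocount of 0.1 moved the median gene to 0.110.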

Other observations

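These genes were chosen after their values were seen. Dgat2, which makes triglyceride, stood at 354 ± 99.7 CPM in controls and 34.2 ± 13.4 CPM in GOF (SD, n = 4), a log2 fold change of -3.37 (adjusted p 7.96e-05 by edgeR). Fasn (-1.79), Acaca (-1.77) and Elovl6 (-1.04) fell as well, and Fasn and Elovl6 were not called without female controls 1 and 3 (adjusted p 0.147 and 0.12). Soat1, which esterifies cholesterol for storage, rose from 641.5 ± 71.1 to 1059 ± 75.2 CPM. The part of adipocytes in these values was not tested.

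Srd5a2, a steroid 5-alpha-reductase, rose by 1.52 on the log2 scale, from 109 ± 23.6 to 313 ± 78.2 CPM, against -0.18 in males (interaction adjusted p 0.00888). Cdh13, an adhesion protein without a membrane-spanning part, rose in females by 2.17 and had a log2 fold change of -3.06 in males (interaction 5.23, adjusted p 1.19e-05). It stood at 5.6 to 8.84 CPM in female controls and 22.1 to 43.6 CPM in female GOF. Kitl, the ligand of Kit, stood at 19.2, 91, 16.6 and 57.6 CPM in female controls and at 174, 123, 81.7 and 167 CPM in female GOF; the groups overlapped and the adjusted p was 0.028, or 0.216 without controls 1 and 3.

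The peptide genes Npy and Penk, both made in chromaffin cells, fell by 3.67 and 3.10 on the log2 scale, near the medulla median of -3.77. Interferon-induced Ifit1 stood at 21.6, 13.6, 62.2 and 54.4 CPM in female controls and at 93.5, 28.9, 30.4 and 27.9 CPM in female GOF, with a log2 fold change of 0.25 that was not called. Apol9b rose by 1.76 (adjusted p 0.0098) and was highest in GOF 1, at 38.3 CPM; it was not called without female controls 1 and 3. Of 9 immediate early genes, which respond within minutes to stress and handling, 0 were called in edgeR, 1 lower at an unadjusted p under 0.05 and 1 lower in DESeq2.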
